A study of Mus musculus with 18 samples.

Results

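Daily prednisone was compared with vehicle in the quadriceps of male mice, in 6 of the 18 RNA-seq libraries of the study: 3 from mice given the drug every day and 3 from mice given vehicle. Genes were taken into the comparison when at least 10 counts were present in at least 3 of these 6 libraries. This rule kept 12720 of the 43430 genes in the table, of which 21444 had at least 1 count in the 6 libraries. The mice were male C57BL/6J, 10 weeks old at the start. Daily treated mice received prednisone at 1 mg/kg intraperitoneally each morning for 4 weeks, and vehicle mice received DMSO in PBS. The right quadriceps was digested with collagenase, the tissue that a cell strainer retained was kept as myofibers, and each library came from 1 mouse. The study's methods place the end of the experiment in the morning, after a force measurement, and the interval between the last daily dose and harvest was not stated. Libraries from daily and vehicle treated females of the same strain, age and dose were used to show where the daily response in males differed. Libraries from males given prednisone once a week served the same purpose. Weekly mice received 1 mg/kg once a week over 4 weeks and vehicle on the other days. Their last prednisone dose came days before harvest. All these libraries, and those of females given weekly prednisone, entered the same fit, so that they also set the estimate of spread. The question was which genes a daily glucocorticoid raised or lowered in male muscle.

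Glucocorticoids bind the glucocorticoid receptor (GR), a nuclear receptor encoded by Nr3c1 that moves to the nucleus and activates or represses genes near its binding sites. In skeletal muscle, long daily exposure is known for fiber atrophy, in which the ubiquitin ligases MuRF1 (Trim63) and atrogin-1 (Fbxo32) mark muscle proteins for the proteasome, and for lower mitochondrial oxidation. Mitochondrial ATP is made by the respiratory chain, whose complexes are built from many small proteins encoded in the nucleus and 13 encoded in mitochondrial DNA.

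The 6 libraries held between 10698148 and 14109022 counts. Xist was at most 0.18 CPM (counts scaled to a common library total, TMM-normalized) in each of them, and fiber genes dominated, with Myh4, the fast 2B myosin heavy chain, between 43822 and 68512 CPM. Measures that did not overlap between the groups were the summed level of 10 adipocyte markers, 563 to 868 CPM under vehicle and 1112 to 2101 CPM under daily prednisone, and the share of counts in cytosolic ribosomal protein genes, 1.26% ± 0.04 against 1.02% ± 0.15 (SD, n = 3 each, exact permutation test, two-sided p = 0.1, the smallest p possible with 3 against 3). Gm42418, a gene model that collects ribosomal RNA reads, did not overlap either, at 309.8 ± 109.9 and 128.7 ± 16.7 CPM (SD, p = 0.1 by the same exact test). Mitochondrially encoded reads took 24.6% ± 7.85 and 20.2% ± 3.73 of counts and overlapped (exact p = 0.7). Libraries also differed by transcript length, as given further on. The part of these properties in the gene results was not tested unless a value is given beside a result.

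More genes were lower than higher under daily prednisone. At an adjusted p under 0.05 (edgeR quasi-likelihood test, Benjamini-Hochberg adjustment over the 12720 genes), 943 genes (7.41%) were called, 314 higher (2.47%) and 629 lower (4.94%). Most changes were small, with a median log2 fold change of 0.69 among the genes called higher and -0.70 among those called lower, against 0.04 over all genes. Only 69 of the rises and 51 of the falls reached a 2-fold change. All but 2 of the called genes had groups that did not overlap, which was also true of 34.7% of all tested genes (16.8% above and 17.9% below). Protein-coding genes made up 293 of the rises and 604 of the falls. Leaving out 1 library at a time left between 135 called genes (without vehicle library 1) and 493 (without vehicle library 2), and 109 of the 943 genes, 36 higher and 73 lower, were called in each of these 6 fits.

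**Figure D1:**
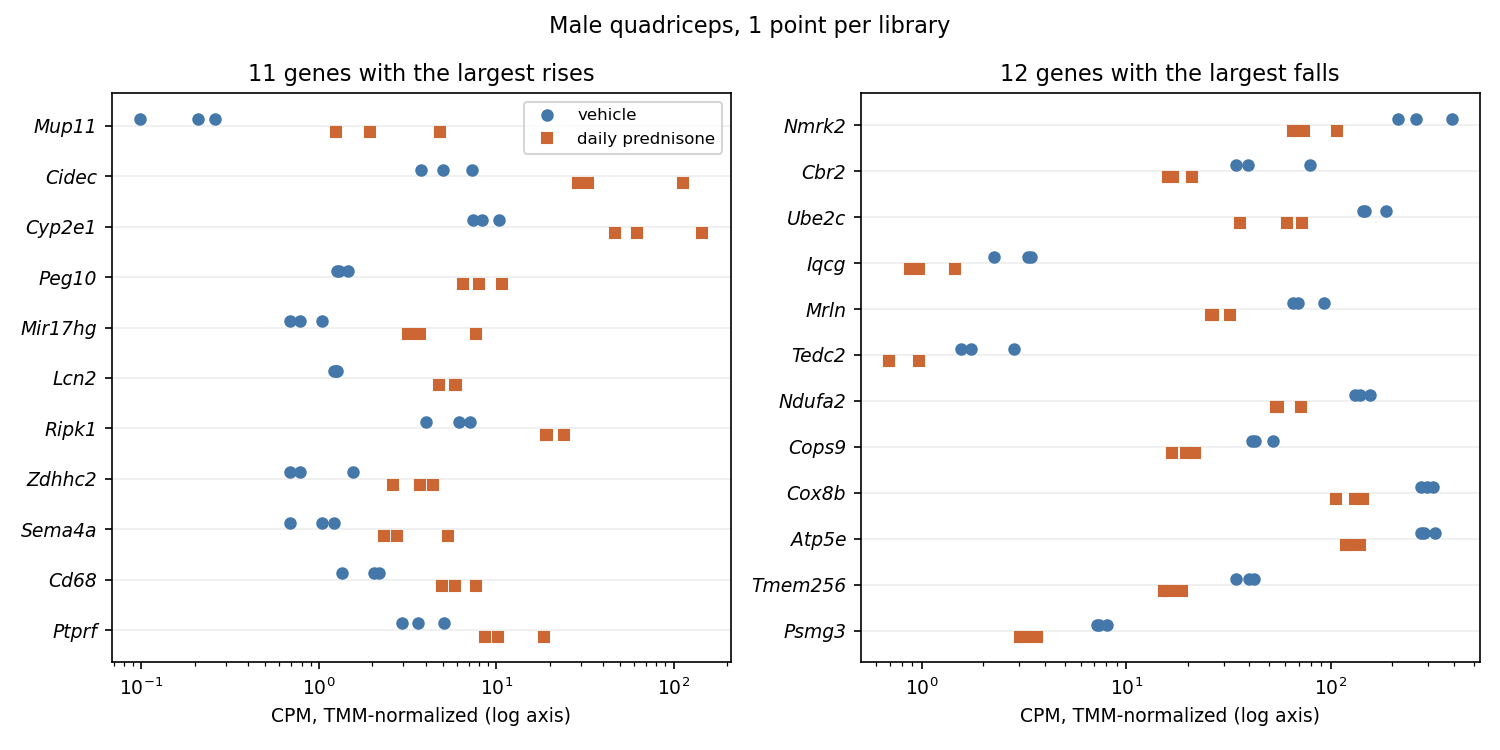
CPM per library on a log axis for the 11 genes with the largest rises (left) and the 12 with the largest falls (right) among called genes of at least 1 CPM whose 2 groups lay apart. Circles are the 3 vehicle libraries and squares the 3 daily prednisone libraries. That the groups lie apart follows from this choice of genes. Cidec and Cyp2e1 reached 114 and 145 CPM in daily library 1 alone.

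Nuclear-encoded subunits of the respiratory chain had the lowest median of the lists examined, while a larger share of cytosolic ribosomal protein genes was called lower (64% and 73.7%). Of 75 tested subunits, 48 were lower, 0 were higher, and 27 did not pass the test, beside 4.94% of all genes called lower. Their median log2 fold change was -0.75, and the daily libraries lay below the vehicle libraries for 70 of the 75, where 17.9% of all genes did so. The summed level of the group was 22733, 21290 and 21404 CPM in the vehicle libraries and 14873, 12037 and 16555 CPM in the daily libraries, so that daily library 2 was the lowest and no daily library reached the vehicle range.

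Complex I, which takes electrons from NADH, held 27 of the 48, from 36 subunits tested, with a median log2 fold change of -0.77. Ndufa2, a complex I accessory subunit, was at 138, 131 and 156 CPM in the vehicle libraries and 71.4, 53.9 and 55.0 CPM in the daily libraries. It fell by 1.24 on the log2 scale (SE 0.17, adjusted p = 0.00487). Ndufb7, another accessory subunit, was at 179, 149 and 172 CPM under vehicle and 85.9, 73.6 and 91.7 CPM under daily prednisone, a log2 fold change of -0.99 (SE 0.17, adjusted p = 0.00665). For both genes the highest daily library stood well under the lowest vehicle library. Complex II, the succinate dehydrogenase that also serves the TCA cycle, had 1 of 4 subunits lower, and complex III had 4 of 9, with a median of -0.63.

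All 11 tested nuclear subunits of complex IV, cytochrome c oxidase, lay below the vehicle range, 8 of them past the threshold, with a median log2 fold change of -0.87. Cox8b, the heart and muscle form of subunit 8 that brown adipocytes also express, was at 315, 276 and 295 CPM under vehicle and 132, 107 and 144 CPM under daily prednisone. Its log2 fold change was -1.21 (SE 0.20, adjusted p = 0.00633). The ATP synthase, complex V, had 8 of 14 subunits lower, with a median of -0.70. Atp5e, its epsilon subunit, was at 286, 276 and 323 CPM under vehicle and 139.8, 123 and 119 CPM under daily prednisone (log2 fold change -1.21, SE 0.19, adjusted p = 0.00487). The daily values of Cox8b and Atp5e did not overlap the vehicle values, and both genes, like Ndufa2 and Ndufb7, were called in each fit that left out 1 library. Cycs, the electron carrier cytochrome c, had a log2 fold change of -0.44 and did not pass the test.

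The count of called subunits depended on single libraries and on the model. It ranged from 9 (without daily library 2) to 34 when 1 library was left out, while the group median stayed between -0.85 and -0.64. With the adipocyte score as a covariate 1 subunit was called, at a median of -0.91. The score is the mean log2 CPM of the adipocyte markers in these same libraries. It averaged 3.22 under vehicle and 5.18 under daily prednisone, without overlap. Calls lost in a fit with this covariate therefore do not separate the score from treatment. With the trend of transcript length and GC content removed 19 were called, at a median of -0.42.

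The 13 genes encoded in mitochondrial DNA had a median log2 fold change of -0.59, 12 of them negative, but only mt-Nd3, a complex I subunit, passed the test. It was at 8.71, 10.7 and 17.5 CPM under vehicle and 5.49, 5.85 and 5.45 CPM under daily prednisone (log2 fold change -1.13, SE 0.29, adjusted p = 0.0293), and it was called in none of the fits with 1 library left out. mt-Nd3, mt-Co2, mt-Co3 and mt-Atp6 were counted at about 4 to 15 CPM on average where mt-Co1 averaged 99522 CPM under vehicle, and reads of these 4 genes match near-identical nuclear copies, so their values are uncertain.

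Other routes of fuel use moved less. Genes called lower made up 4.55% of the pyruvate and TCA list and 4% of the glycolysis list, near the 4.94% of all genes. In the pyruvate oxidation and TCA cycle list 1 of 22 genes was lower, Mpc2, a subunit of the carrier that brings pyruvate into mitochondria, at 187, 169.7 and 185 CPM under vehicle and 114, 91.2 and 118 CPM under daily prednisone (log2 fold change -0.74, SE 0.21, adjusted p = 0.0377). In glycolysis and glycogen metabolism 1 of 25 was lower, Pgam2, the muscle phosphoglycerate mutase, at 2449, 1915 and 2020 CPM against 1168, 1019 and 1215 CPM (log2 fold change -0.91, SE 0.21, adjusted p = 0.0192). In both genes the groups lay apart, and Mpc2 was called in none of the fits with 1 library left out. The summed level of the glycolysis and glycogen list was 52147 to 66020 CPM under vehicle and 43530 to 45905 CPM under daily prednisone, again apart, with a median log2 fold change of -0.21. For fatty acid uptake and beta-oxidation 0 of 27 genes passed the test in either direction (median -0.05), and the same was true of the 17 genes of branched-chain amino acid breakdown (median -0.03).

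**Figure D2:**
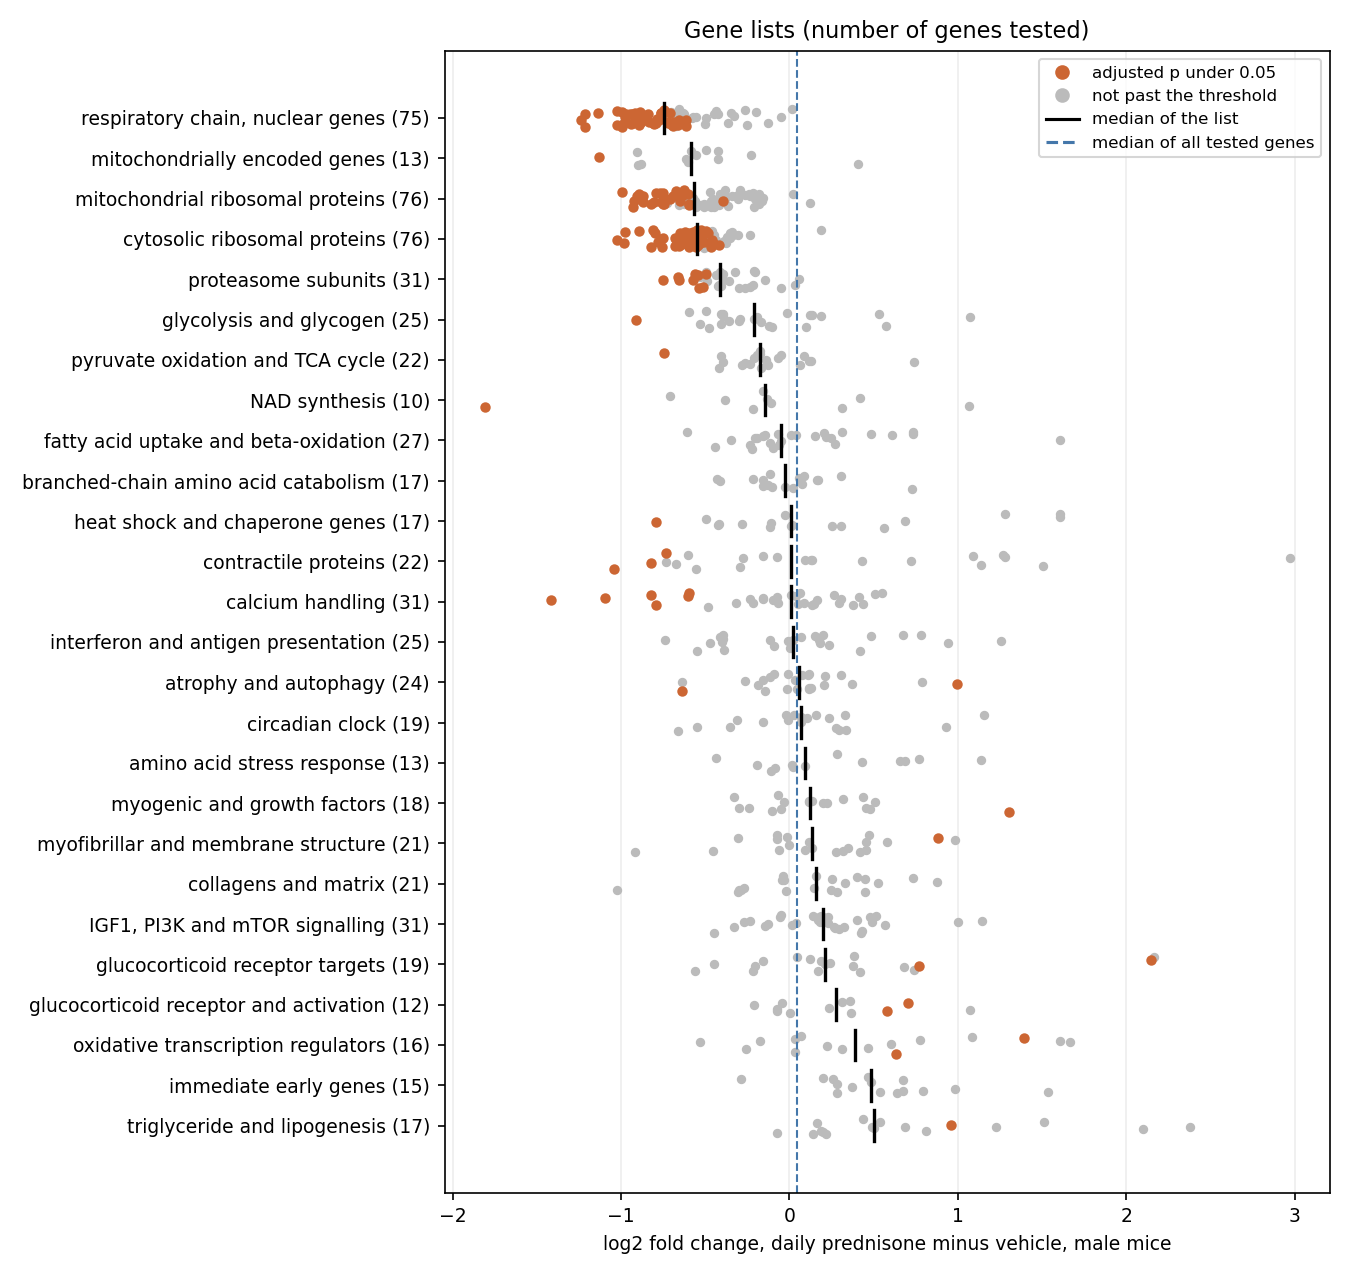
Log2 fold change of daily prednisone minus vehicle in males for each tested gene of 26 lists, 1 point per gene, with the number of tested genes in parentheses. Orange points passed an adjusted p of 0.05, black bars are list medians and the dashed line is the median over all tested genes (0.04), and the medians run from -0.75 for the respiratory chain to 0.50 for triglyceride metabolism.

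Genes of protein synthesis and of the proteasome also fell. Cytosolic ribosomal proteins, the protein part of the ribosomes that translate nuclear messages, had 56 of 76 members lower and 0 higher, beside 4.94% of all genes called lower, with a median log2 fold change of -0.55 and with 75 of 76 below the vehicle range. The small subunit had 27 of 31 lower and the large subunit 29 of 45. Rpl37a, of the large subunit, was at 166, 154 and 176 CPM under vehicle and 88.2, 81.2 and 74.0 CPM under daily prednisone (log2 fold change -1.03, SE 0.16, adjusted p = 0.00487). Rps29, of the small subunit, was at 183, 174 and 196 CPM under vehicle and 113, 108 and 91.3 CPM under daily prednisone (log2 fold change -0.82, SE 0.14, adjusted p = 0.00713). Rpl24 and Rplp1 had log2 fold changes of -0.98 and -0.89, and the groups did not overlap for any of the 4 genes. Ribosomal protein genes have many near-identical pseudogenes, and how the authors' counting divided reads among them is not known. The number of called members fell to 7 without vehicle library 1, to 0 with the adipocyte score as a covariate, and to 10, at a median of -0.23, with the length and GC trend removed.

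Ribosomal proteins of the mitochondrion, which translate the 13 mitochondrial messages, had 29 of 76 members lower and 0 higher, beside 4.94% of all genes called lower (median -0.57). Mrpl52 was at 35.8, 28.2 and 32.9 CPM under vehicle and 15.8, 17.8 and 15.1 CPM under daily prednisone (log2 fold change -0.99, SE 0.16, adjusted p = 0.00608). Mrps12, Mrpl28 and Mrpl12 had log2 fold changes of -0.87, -0.92 and -0.87, each with the groups apart. Proteasome subunits, which degrade ubiquitin-tagged proteins, had 9 of 31 lower and 0 higher, beside 4.94% of all genes called lower, 7 of them among the 14 subunits of the core and 2 among the 17 of the regulatory particle. Psmb5, a catalytic core subunit, was at 132, 108 and 112 CPM under vehicle and 73.1, 72.1 and 63.5 CPM under daily prednisone (log2 fold change -0.75, SE 0.14, adjusted p = 0.00917). Psmd13, of the regulatory particle, had a log2 fold change of -0.66, and Psmg3, a chaperone of proteasome assembly, one of -1.20.

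Promoter letters are shown for 3 genes whose windows held a match and no annotated exon, one from each of 3 groups: Atp5g3, a subunit of the ATP synthase (log2 fold change -0.76, adjusted p = 0.0292), Rpl37, of the large ribosomal subunit (-0.57, adjusted p = 0.0305), and Trim63, whose values are given further on. They are the 250 bases before the RefSeq start on GRCm38.p6, 5′ to 3′ on the gene's strand, at chr2:73911327-73911576 (minus strand), chr15:5116363-5116612 (plus strand) and chr4:134314870-134315119 (plus strand). Capitals mark matches on either strand to an E-box (CACGTG) and an estrogen-related receptor motif (TCAAGGTCA) in Atp5g3, an ETS motif (CCGGAAGT, bound by GABPA) in Rpl37 and the GR motif ACANNNTGT in Trim63. These 3 genes were chosen after their values were seen.
Atp5g3: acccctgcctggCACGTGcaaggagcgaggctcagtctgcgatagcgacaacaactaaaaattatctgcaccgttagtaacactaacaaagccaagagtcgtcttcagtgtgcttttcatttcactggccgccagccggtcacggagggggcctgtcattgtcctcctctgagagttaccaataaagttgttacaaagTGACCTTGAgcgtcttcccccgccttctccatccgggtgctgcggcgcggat
Rpl37: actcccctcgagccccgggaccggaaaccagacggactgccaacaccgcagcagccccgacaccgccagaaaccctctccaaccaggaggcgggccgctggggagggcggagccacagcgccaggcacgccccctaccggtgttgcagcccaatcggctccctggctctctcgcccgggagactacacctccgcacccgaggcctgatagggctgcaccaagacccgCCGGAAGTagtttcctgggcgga
Trim63: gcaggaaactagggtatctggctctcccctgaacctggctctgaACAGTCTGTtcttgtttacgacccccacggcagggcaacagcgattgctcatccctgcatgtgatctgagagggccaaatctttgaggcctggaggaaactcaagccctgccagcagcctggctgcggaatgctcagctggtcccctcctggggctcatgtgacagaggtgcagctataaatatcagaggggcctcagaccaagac

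Across all 32851 such windows in RefSeq, ACANNNTGT was present in 5.84%, against 2.04% of the 294 windows of genes called higher and 2.69% of the 594 windows of genes called lower, and in 18.5% of the 27 windows of the GR target list. The NRF1 motif, searched like the others on both strands, stood in 19.1% of the 68 respiratory chain windows and 3.74% of all windows. It stood in 9.18% of windows of genes called higher and 10.8% of those called lower. The ETS motif CCGGAAGT stood in 10.6% of the 66 cytosolic ribosomal protein windows and 2.88% of all windows. Its share was 9.26% in windows of genes called lower and 6.12% in those called higher. In the 75 windows of mitochondrial ribosomal proteins it was 13.3%. The window sets differed in composition, with a median GC content of 57.0% for the respiratory chain, 57.8% for ribosomal proteins, 59.6% for GR targets, 62.8% for genes called higher, 58.4% for genes called lower and 52.4% for all windows. Windows of 63 of the 76 respiratory chain genes, 56 of the 76 ribosomal protein genes and 17 of the 20 GR targets were found by symbol. The estrogen-related receptor motif shown for Atp5g3 stood in 1 of the 68 respiratory chain windows (1.47%) and in 0.387% of all windows. The E-box stood in 10.3% of respiratory chain windows and 6.02% of all windows. Its share was 10.3% in windows of genes called lower and 11.9% in those called higher. These are counts of letters and not of binding.

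**Figure D3:**
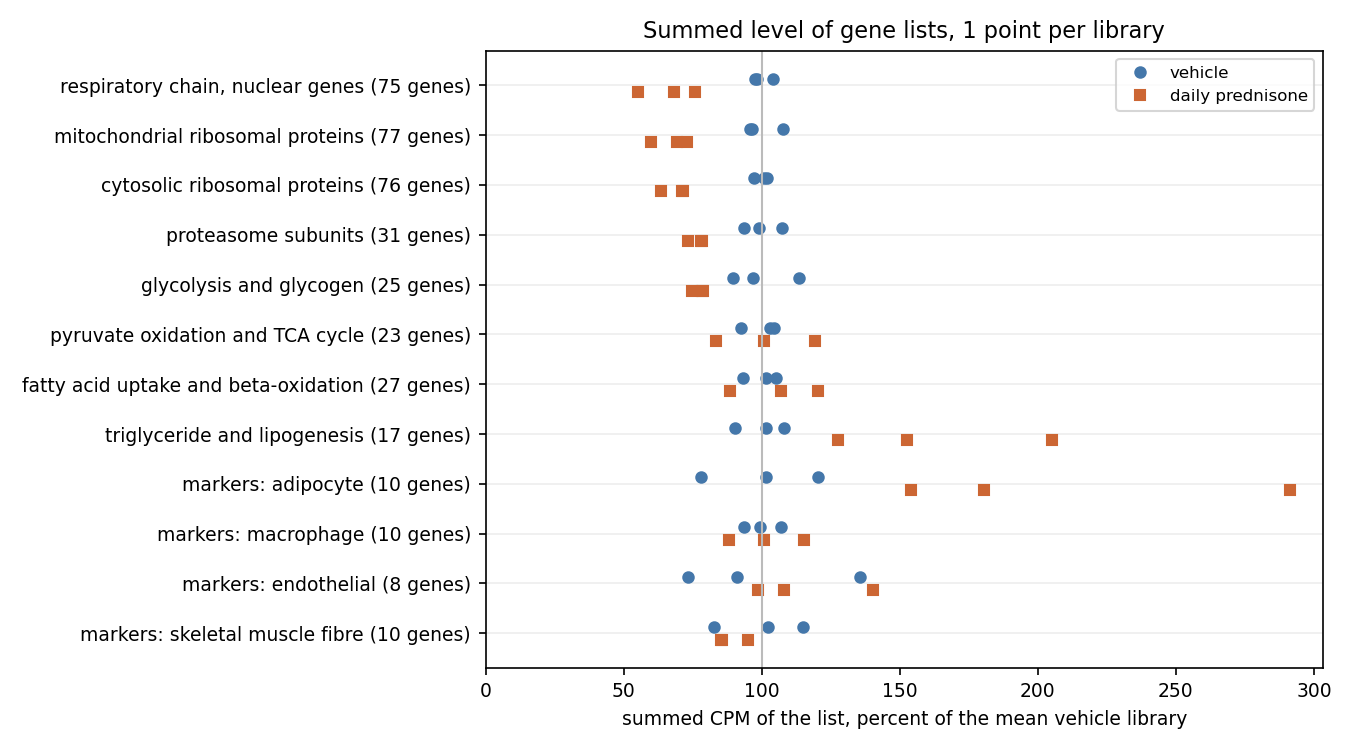
Summed CPM of 12 gene lists in each library, as a percentage of the mean of the 3 vehicle libraries, with circles for vehicle and squares for daily prednisone. The respiratory chain, both ribosomal lists, the proteasome and glycolysis lie entirely below the vehicle libraries, triglyceride genes and adipocyte markers lie entirely above them, and the TCA cycle, beta-oxidation, macrophage, endothelial and fiber lists overlap.

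The genes most often used to mark glucocorticoid atrophy showed no detectable rise in these males. Trim63 was at 614, 577 and 699 CPM under vehicle and 1004, 736 and 597 CPM under daily prednisone, with 1 daily library inside the vehicle range (log2 fold change 0.31, SE 0.52, adjusted p = 0.759). Fbxo32 was at 916, 868 and 634 CPM under vehicle and 842, 686 and 944 CPM under daily prednisone (log2 fold change 0.03, SE 0.43, adjusted p = 0.975). With standard errors of this size, changes of the order of 2-fold in Fbxo32 or Trim63 could have gone undetected. In the list of 24 atrophy and autophagy genes 1 rose and 1 fell, beside 2.47% and 4.94% of all genes, so that the counts are near those shares. Fbxo30, a ubiquitin ligase of muscle wasting also called MUSA1, rose from 9.58, 9.97 and 10.1 CPM to 19.5, 17.8 and 21.8 CPM, with the groups far apart (log2 fold change 0.99, SE 0.19, adjusted p = 0.0102). Map1lc3a, which encodes an autophagosome membrane protein, fell by 0.64 on the log2 scale (SE 0.18, adjusted p = 0.0440) and was called in none of the fits with 1 library left out.

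Among 19 tested GR targets 2 rose and 0 fell, beside 2.47% of all genes called higher, and the list median was 0.21. The summed level of the list was 3059 to 3738 CPM under vehicle and 3948 to 4916 CPM under daily prednisone, without overlap. Lcn2, which encodes the secreted iron carrier lipocalin 2, was at 1.22, 1.27 and 1.25 CPM in the vehicle libraries and 5.97, 5.85 and 4.77 CPM in the daily libraries, and the groups did not come near each other. Zbtb16, a zinc finger transcription factor, was at 61.1, 91.8 and 88.6 CPM under vehicle and 147, 123 and 142 CPM under daily prednisone, apart from the vehicle range, and was called in none of the fits with 1 library left out. The other 17 targets did not pass the test, among them the classic targets Fkbp5 (log2 fold change 0.38, adjusted p = 0.621, every daily library above the vehicle range) and Tsc22d3 (-0.22, adjusted p = 0.555), which were named after their values were seen.

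Nr3c1 itself was at 73.3, 67.0 and 55.1 CPM under vehicle and 76.4, 71.0 and 82.9 CPM under daily prednisone and overlapped between the groups (log2 fold change 0.24, SE 0.12, adjusted p = 0.258). Among the 12 genes of the receptor and its activation 2 rose, the steroid receptor coactivators Ncoa2 and Ncoa1, beside 2.47% of all genes called higher. The list median was 0.28, and -0.084 with the adipocyte score as a covariate. Ncoa2 rose from 12.6, 15.6 and 14.1 CPM to 20.5, 23.1 and 25.6 CPM (log2 fold change 0.71, SE 0.15, adjusted p = 0.0120), and Ncoa1 had a log2 fold change of 0.58 (SE 0.16, adjusted p = 0.0359). Both had every daily library above every vehicle library, and Ncoa1 was called in none of the fits with 1 library left out. None of 19 circadian clock genes, 31 IGF1, PI3K and mTOR signaling genes, 13 amino acid stress response genes or 15 immediate early genes passed the test, with medians of 0.07, 0.20, 0.09 and 0.48, and the immediate early genes were positive in 14 of 15.

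Several of the most abundant fast fiber genes fell. Of 22 tested contractile protein genes 3 were lower and 0 higher, all 3 from the 14 fast fiber genes (median -0.42), beside 4.94% of all genes called lower. Tnnc2, the calcium-binding troponin C of fast fibers, was at 3433, 2713 and 2629 CPM under vehicle and 1558, 1373 and 1339 CPM under daily prednisone (log2 fold change -1.04, SE 0.20, adjusted p = 0.0102). Tnni2, fast troponin I, and Tpm1, a tropomyosin, had log2 fold changes of -0.82 and -0.74, with every daily library below the vehicle range, and Tpm1 was called in none of the fits with 1 library left out. The 8 slow fiber genes had a median of 1.12 and 0 passed the test, and all 8 overlapped between the groups. Myh4 did not differ detectably (log2 fold change 0.09, SE 0.22, adjusted p = 0.833), and Acta1, skeletal muscle actin, had a log2 fold change of -0.48 (SE 0.23, adjusted p = 0.226).

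Calcium handling genes had 6 of 31 lower and 0 higher, beside 4.94% of all genes called lower. Pvalb, the parvalbumin that buffers calcium in fast fibers, was at 21764, 18379 and 17568 CPM under vehicle and 9840, 8370 and 8812 CPM under daily prednisone (log2 fold change -1.09, SE 0.20, adjusted p = 0.00789). Mrln encodes myoregulin, a small peptide that inhibits the SERCA calcium pump, and was at 92.5, 65.1 and 69.1 CPM under vehicle and 32.2, 26.1 and 26.7 CPM under daily prednisone. Pvalb and Mrln were called in every fit with 1 library left out, and in each the highest daily library stood far under the lowest vehicle library. Cacng1, a subunit of the voltage sensor, Orai1, the channel of store-operated calcium entry, and Casq1, the calcium store protein calsequestrin, had log2 fold changes of -0.82, -0.60 and -0.60, and the sixth gene was Jsrp1, which couples the voltage sensor to release.

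Other muscle genes changed singly, where 2.47% of all genes were called higher and 4.94% lower. Dmd, which encodes dystrophin, rose from 39.7, 39.1 and 25.7 CPM to 56.3, 55.8 and 80.5 CPM (log2 fold change 0.88, SE 0.21, adjusted p = 0.0223), 1 of 21 genes of myofibrillar and membrane structure to pass. Musk, the receptor kinase of the neuromuscular junction, rose from 4.01, 3.42 and 4.68 CPM to 8.05, 12.95 and 8.86 CPM (log2 fold change 1.31, SE 0.31, adjusted p = 0.0195), 1 of 18 myogenic and growth factor genes. Hspb2, a small heat shock protein of muscle, had a log2 fold change of -0.80 (SE 0.20, adjusted p = 0.0268), and 30.2% of its exon bases overlap those of Cryab on the opposite strand (log2 fold change -0.42). In NAD synthesis Nmrk2, the muscle nicotinamide riboside kinase, was the 1 of 10 genes to pass, and it was lower in each daily library (107, 65.6 and 74.3 CPM) than in any vehicle library (390.2, 213 and 262 CPM). Tcap, the titin cap of the Z-disc, and Ak1, adenylate kinase 1, fell by 0.59 and 0.70 on the log2 scale (adjusted p = 0.0329 and 0.0376), and neither was called in any fit with 1 library left out.

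Among 16 regulators of oxidative gene transcription 2 rose and 0 fell, beside 2.47% of all genes called higher, with a median of 0.39 that was opposite in sign to the respiratory chain, except with the adipocyte score as a covariate, where it was -0.021. Gabpa, the ETS factor also called NRF2 alpha, rose from 14.3, 17.2 and 18.5 CPM to 22.5, 23.2 and 31.7 CPM (log2 fold change 0.63, SE 0.16, adjusted p = 0.0292). Sirt1, an NAD-dependent deacetylase, rose from 8.97, 12.2 and 11.6 CPM to 29.3, 32.5 and 24.3 CPM (log2 fold change 1.40, SE 0.38, adjusted p = 0.0368). Both groups of values were apart, but Sirt1 was called in none of the fits with 1 library left out. Esrra and Ppargc1a, which encode the orphan receptor ERR alpha and its coactivator PGC-1 alpha, did not pass (log2 fold changes -0.53 and 1.08, adjusted p = 0.0831 and 0.165), and were named after their values were seen.

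The largest rises were in genes of low level, and they were picked among called genes whose groups lay apart. Peg10, an imprinted gene derived from a retrotransposon, was at 1.31, 1.27 and 1.46 CPM under vehicle and 7.99, 10.8 and 6.52 CPM under daily prednisone, with no overlap (log2 fold change 2.65, SE 0.49, adjusted p = 0.00901). Cyp2e1, a cytochrome P450 of liver and fat, was at 7.40, 10.4 and 8.31 CPM against 145, 61.9 and 46.8 CPM (log2 fold change 3.29, SE 0.82, adjusted p = 0.0290). Ripk1, a kinase of cell death signaling, rose from 4.01, 7.13 and 6.13 CPM to 24.2, 19.4 and 19.2 CPM (log2 fold change 1.87, SE 0.54, adjusted p = 0.0473). Other large rises had log2 fold changes of 1.70 for the receptor phosphatase Ptprf, 1.82 for the semaphorin Sema4a and 1.84 for the palmitoyltransferase Zdhhc2 and 3.74 for Mup11, one of a family of near-identical major urinary protein genes whose reads cannot be divided with certainty. Mup11, Cidec, Cyp2e1 and Ripk1 were called in none of the fits that left out 1 library.

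Mir17hg, the host transcript of the miR-17-92 cluster, was at 0.784, 0.684 and 1.04 CPM under vehicle and 3.19, 7.67 and 3.70 CPM under daily prednisone, apart in all 6 libraries (log2 fold change 2.54, SE 0.59, adjusted p = 0.0195). Its log2 fold change in females was 2.01. The gene spans chr14:115042879-115046727 in the authors' table, and all 6 hairpins of the cluster lie inside it. Their main mature miRNAs, none of which was measured here, are shown from RefSeq (GRCm38.p6) because the transcript is their source, 5′ to 3′ with the seed (bases 2 to 8) in capitals and grouped by seed, the first pair and the middle pair each sharing one.
miR-17-5p: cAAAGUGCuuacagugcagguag
miR-20a-5p: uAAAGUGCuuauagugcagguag
miR-19a-3p: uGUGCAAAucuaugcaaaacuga
miR-19b-3p: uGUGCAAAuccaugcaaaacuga
miR-18a-5p: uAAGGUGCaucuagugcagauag
miR-92a-3p: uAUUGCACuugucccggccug

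Genes with the largest falls included several without a role in the lists above. Cops9, a small subunit of the COP9 signalosome, was at 42.5, 41.2 and 52.3 CPM under vehicle and 21.6, 19.6 and 16.7 CPM under daily prednisone (log2 fold change -1.23, SE 0.18, adjusted p = 0.00487). Tmem256, a small membrane protein, was at 39.8, 34.3 and 42.2 CPM against 18.8, 15.3 and 16.5 CPM (log2 fold change -1.20, SE 0.15, adjusted p = 0.00349). Its adjusted p was the smallest of all genes, tied with that of Gse1, which rose (log2 fold change 1.20, SE 0.15). Cbr2, a carbonyl reductase, was at 79.3, 34.5 and 39.4 CPM under vehicle and 21.04, 16.9 and 16.1 CPM under daily prednisone. Cops9, Tmem256 and Cbr2, like the other largest falls, were picked among genes whose groups lay apart. Each was called in every fit with 1 library left out. Ube2c, a ubiquitin-conjugating enzyme of dividing cells, had a log2 fold change of -1.50 (159 ± 22.9 to 56.3 ± 18.5 CPM, SD, adjusted p = 0.00608). However, 592 exon bases of Ube2c are shared, on the opposite strand, with Tnnc2, which averaged 2174 CPM over the 6 libraries, and without the strand of the reads the counts of these genes cannot be told apart. Iqcg (log2 fold change -1.46), 48.1% of whose exon bases overlap Lrch3, and Tedc2 (-1.39), a gene of tubulin complexes, were low in level and were called in none of the fits with 1 library left out.

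Fat-related genes rose with large spread. Of 10 adipocyte markers 9 were positive, with a median log2 fold change of 2.46, and 1 passed the test, beside 2.47% of all genes called higher. Cidec, which enlarges lipid droplets, was at 3.75, 7.33 and 4.99 CPM under vehicle and 114, 32.9 and 29.1 CPM under daily prednisone (log2 fold change 3.45, SE 0.99, adjusted p = 0.0482). Plin1 and Adipoq, defining genes of fat cells, were present in every library, Adipoq at 4.09, 12.1 and 6.65 CPM under vehicle and 82.7, 29.0 and 27.2 CPM under daily prednisone, and Ucp1, the defining gene of brown fat, was at 0 in 3 of the 6 libraries and at most 1.53 CPM. In triglyceride metabolism and lipogenesis 16 of 17 genes were positive (median 0.50) and 1 rose, beside the same 2.47% of all genes. The gene was Gpam, the mitochondrial enzyme of the first step of glycerolipid synthesis. It rose from 34.8, 45.0 and 31.1 CPM to 67.4, 54.3 and 94.6 CPM (log2 fold change 0.96, SE 0.28, adjusted p = 0.0487). Gpam, like Cidec, was called in none of the fits with 1 library left out. With the adipocyte score as a covariate this list's median was -0.54 and 34 genes in all were called, 26 of them among the 943. In bulk tissue, more cells of a type and more RNA per cell cannot be told apart.

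Markers of other cells moved less, where 2.47% of all genes were called higher and 4.94% lower. The 10 skeletal muscle fiber markers had a median log2 fold change of -0.28 with 0 called, and their summed level overlapped, at 159335 to 220815 CPM under vehicle and 164196 to 182464 CPM under daily prednisone. Of 4 tested brown adipocyte markers 1 was lower, Cox8b, which is also a muscle subunit and whose values are given above, and 3 were positive without passing. Among these Cidea, a lipid droplet protein of brown fat, was at 0, 0.293 and 0.208 CPM under vehicle and 3.68, 0.817 and 1.27 CPM under daily prednisone (adjusted p = 0.343), without overlap, while Prdm16 and Dio2 had log2 fold changes of 0.02 and 0.13. Cd68, a lysosomal macrophage protein, rose from 2.18, 2.05 and 1.35 CPM to 5.83, 7.67 and 4.96 CPM (log2 fold change 1.72, SE 0.31, adjusted p = 0.00730), while it was the 1 of 9 macrophage markers to pass and their summed level was 63.8 to 73.0 CPM under vehicle and 60.1 to 78.7 CPM under daily prednisone. No endothelial (8), fibroblast (7), pericyte (7), satellite cell (6), red cell (5) or tendon (6) marker passed the test, nor did any of the 21 collagen and matrix genes or the 25 interferon and antigen presentation genes. No neutrophil marker reached the count minimum, with Ly6g and Ngp at 0 in all 6 libraries, Cd8a was at 0 among lymphocyte markers and Fcer1a among mast cell markers.

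The direction of change followed transcript length. When genes were divided into 5 equal bins by their longest annotated transcript (GENCODE M21), the median log2 fold change was -0.33 in the shortest bin and then -0.09, 0.03, 0.15 and 0.28 in the longest. In the shortest bin 16.8% of genes were called lower and 0.631% higher, and in the longest 0.395% were lower and 6.67% higher. The median transcript was 1360 bases in the genes called lower, 5664.5 bases in those called higher and 3405 bases over all tested genes. Median GC content was 52.5%, 45.5% and 49.8% in the same order. The lists that fell were short, at a median of 1046 bases for the respiratory chain and 1100 for cytosolic ribosomal proteins, as against 2701.5 for the TCA cycle and 2895 for fatty acid oxidation.

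**Figure D4:**
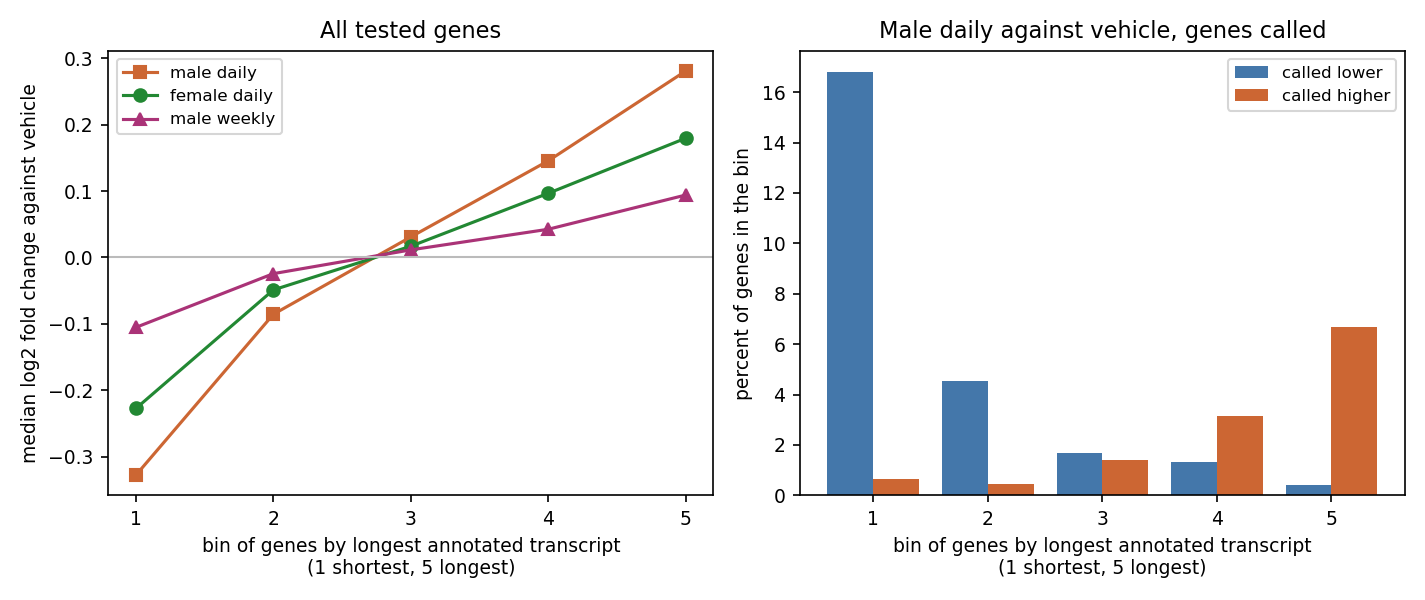
Left, median log2 fold change against vehicle in 5 bins of genes by transcript length for male daily, female daily and male weekly prednisone. Right, percent of genes in each bin called lower or higher under daily prednisone in males, where the shortest bin holds 16.8% lower and the longest 6.67% higher.

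The mean log2 level of the shortest bin minus that of the longest was -0.08, -0.24 and -0.20 in the 3 male vehicle libraries and -0.63, -0.72 and -0.74 in the 3 male daily libraries, without overlap. The same measure was -0.33, -0.04 and -0.29 in female vehicle and -0.43, -0.67 and -0.57 in female daily libraries, and -0.40, -0.21 and -0.42 in male weekly libraries. Whether length itself, GC content or RNA quality moved with treatment was not tested, and in these libraries a change of short messages and a change of these pathways cannot be told apart. When the smooth trend of length and GC content was taken out, 261 genes were called, 68 higher and 193 lower, and 236 of them were among the 943. Of the 61 named genes that had been called, 28 were still called there and 33 were not. Those still called included Lcn2, Cd68, Peg10, Mir17hg, Pvalb, Mrln, Ndufa2, Ndufb7, Cox8b, Atp5e, Rpl37a and Rpl24, with log2 fold changes of -0.80, -1.04, -0.74 and -0.99 for Ndufa2, Ndufb7, Cox8b and Atp5e. Those no longer called included Fbxo30, Map1lc3a, Zbtb16, Ncoa1, Ncoa2, Gabpa, Sirt1, Dmd, Nmrk2, Hspb2, Gpam, Cidec, Mup11, Ripk1, Sema4a, Pgam2, Tnni2, Tpm1, Casq1, Cacng1, Orai1, Tcap, Ak1, Iqcg, Tedc2, mt-Nd3, Rps29, Rplp1 and Psmb5.

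Females given the same daily dose moved in the same direction with fewer calls. Of the 314 genes that rose in males 302 had a positive log2 fold change in females, with a median of 0.42, and of the 629 that fell 613 were negative, with a median of -0.44, while the median over all genes in females was 0.01. In the females' own test 71 genes (0.558%) were called, and 51 genes were called in both sexes in the same direction. The respiratory chain had a median of -0.44 in females with 2 subunits called, and cytosolic ribosomal proteins had -0.56 with 15 called. Mrln was the same in both sexes, with log2 fold changes of -1.42 ± 0.26 in males and -1.43 ± 0.26 (SE) in females.

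**Figure D5:**
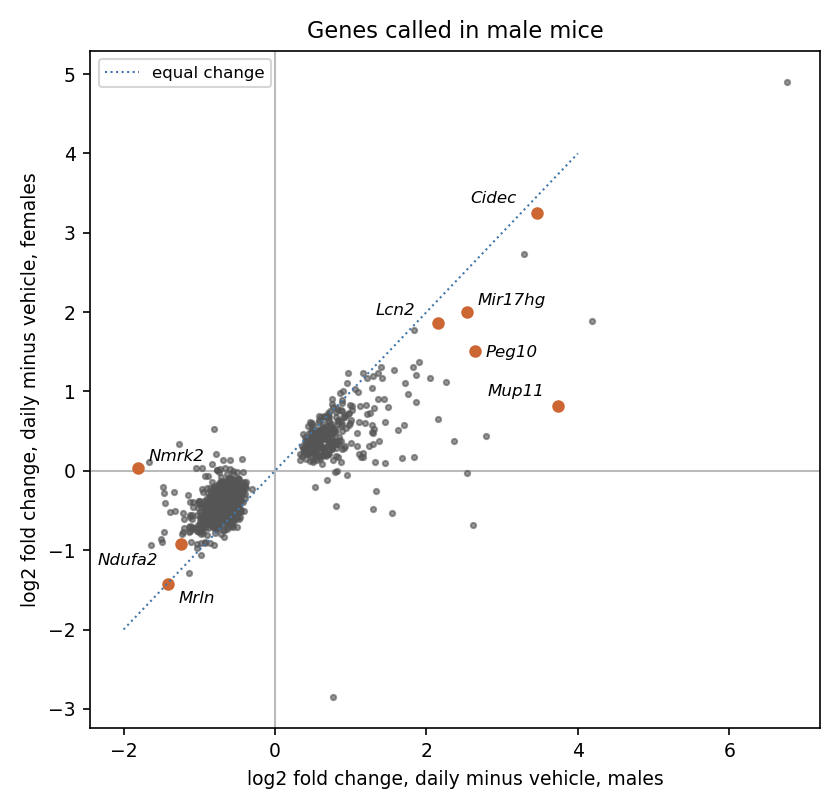
Log2 fold change of daily prednisone minus vehicle in females against that in males for the 943 genes called in males, with the dotted line marking equal change. Most points share a sign, and Nmrk2 stands at -1.81 in males and 0.04 in females.

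The difference between the sexes in the daily response was itself tested, and 0 genes passed (edgeR interaction, smallest adjusted p = 0.876). At an unadjusted p under 0.05 there were 616 genes (4.84%), DESeq2 called 2 and limma-voom 0. Nmrk2 had the largest gap among the named falls, with a log2 fold change of -1.81 ± 0.46 in males and 0.04 ± 0.46 (SE) in females, and it did not pass the adjusted test of the difference. Zdhhc2 (1.84 and 0.17) and Mup11 (3.74 and 0.82) also had larger male than female values without passing that test. The starting levels were unlike in the sexes. Nmrk2 averaged 288 CPM under vehicle and 82.3 CPM under daily prednisone in males, and 42.5 and 43.8 CPM in females. Mup11 averaged 0.189 and 2.67 CPM in males, and 5.78 and 10.1 CPM in females. For Zdhhc2 the means were 1.01 and 3.57 CPM in males, and 1.71 and 1.90 CPM in females. The clock gene list had a median of 0.07 in males and 0.45 in females, and the collagen and matrix list 0.15 and -0.55, and the difference of these lists was not tested.

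Male mice given prednisone once a week shared the 3 vehicle libraries, and in their own comparison 0 genes were called by edgeR. Their last prednisone dose came days before harvest, while the interval after the last daily dose was not stated. The schedule and this interval cannot be told apart here. The log2 fold changes of daily and weekly treatment, side by side, were -1.24 and -0.33 for Ndufa2, -1.21 and -0.17 for Atp5e, -1.03 and -0.36 for Rpl37a, -1.09 and -0.54 for Pvalb, -1.42 and -0.93 for Mrln, 2.15 and 2.03 for Lcn2, 2.65 and 0.94 for Peg10, and 1.72 and 0.10 for Cd68. The respiratory chain had a median of -0.75 under daily and -0.14 under weekly treatment, cytosolic ribosomal proteins -0.55 and -0.19, and adipocyte markers 2.46 and 2.198.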

How the data were processed

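RNA was measured in quadriceps myofibers. Per the labels and the study's methods, reads were aligned with TopHat2 2.1.0 and Bowtie2 2.2.6, to mm10 in the methods (mm9 is also listed in the processing notes), and counted per gene with HTSeq. The strand setting and annotation release were not given in the sources used here. The authors deposited raw whole-number counts per gene and library, without normalization.

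The 18 libraries, in 6 groups named by the labels, were fitted together, with 1 mean per group and TMM scaling, by edgeR 4.0.16 (robust quasi-likelihood F test, R 4.3.3). Adjusted p-values are Benjamini-Hochberg over the 12720 genes with at least 10 counts in at least 3 of the 6 male libraries, with a threshold of 0.05. The standard errors were derived from the fit, as the absolute log2 fold change divided by the square root of its F statistic. A prior count of 2 was used only for the log2 CPM levels of libraries. CPM are TMM-scaled. The script was tested on simulated data. DESeq2 1.42.0, limma-voom 3.58.1 and other filters, covariates and left-out libraries served as alternatives. Transcript length, GC content and exon overlaps came from GENCODE M21 (GRCm38), matched by gene identifier for 12668 genes, and promoters and miRNAs from RefSeq.

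Named genes were the 12 largest rises and 12 largest falls of at least 1 CPM whose groups lay apart, the 8 most abundant called genes, up to 4 called members of each list and, where none was called, the 2 most abundant, with Trim63, Fbxo32 and Nr3c1. Some genes this rule gives are not reported here, and genes named besides it were chosen after their values were seen. The comparison, members and lists were chosen with earlier results of these data known.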

Additional observations from a re-analysis of the deposited data

How the results depend on the processing

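No named gene that was called changed direction under any of the alternatives that tested it. Of the 943 called genes, 942 kept their sign in every alternative that tested them, while the number of calls moved. The filter at a mean of at least 5 CPM tested 9229 genes, so called genes below that level were not tested there. DESeq2 called 1419 genes (501 higher), and 2 in the test of the difference between the sexes. Without a filter on low counts 618 genes were called (393 lower), with 30 cytosolic ribosomal proteins among the falls. A fit of the 6 libraries alone called 1526 genes (664 higher, 43.5% of calls against 33.3%), 853 of them among the 943. With the adipocyte score as a covariate 34 were called (10 higher, 24 lower), with 1 respiratory chain subunit and 0 ribosomal proteins, and 2625 genes had an unadjusted p under 0.05. The score did not overlap between the groups, so this fit does not separate it from treatment. With the length and GC trend removed 261 were called (68 higher, 193 lower), with 19 respiratory chain subunits and 10 ribosomal proteins. Leaving out 1 library at a time gave 135 to 493 calls, 48 to 168 higher and 87 to 325 lower, with 9 to 34 respiratory chain subunits and 7 to 25 ribosomal proteins, and fewer samples were then in the fit. The cause of the other differences was not tested. DESeq2 size factors, limma-voom, both other filters and leaving out mitochondrial genes gave 849 to 1158 calls.

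What the replicate numbers stand for was not stated. Deviations of same-numbered vehicle and daily libraries from their group means correlated at 0.03, -0.19 and -0.36. With 3 libraries in each group these values cannot decide whether samples were paired. With the replicate block in the fit of 18 libraries 581 genes were called (177 higher, 404 lower), 577 of them among the 943, with 29 ribosomal proteins. With the block and the 6 libraries alone, 0 genes were called by edgeR (0 higher, 0 lower, 0 respiratory chain subunits, 0 ribosomal proteins), with 2859 genes at an unadjusted p under 0.05 and a smallest adjusted p of 0.0554. With 3 libraries in each group, counts below about 1 CPM and genes with large spread, such as Trim63, were limited in what they could show.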
